A study of Homo sapiens with 6 samples.

Results

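The solute carriers (SLC) are membrane proteins that move ions, sugars, amino acids, nucleotides and metabolites across membranes. Genes were taken as members when their Ensembl identifier mapped to a protein-coding symbol beginning with SLC and a number, and when they held at least 20 footprints in the eIF3b-bound library and 40S 1 together. This chose 69 of the 149 protein-coding SLC symbols in the table, and 69 of the 4175 genes that reached 20 footprints among 9675 listed. The 69 were 19 SLC25 genes, which encode members of the mitochondrial carrier family, and 50 genes of other SLC families. Of the remaining 80 SLC symbols, 54 had 1 to 19 footprints and 26 had none in either library. SLC2A4RG meets the rule by its symbol, but encodes a regulator of the glucose transporter gene SLC2A4 and is no carrier.

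All footprints came from HEK293T, a human embryonic kidney cell line, grown for 48 h and then fixed in the cold with 0.3% formaldehyde for 5 min, which locks ribosomal complexes onto mRNA. RNase I removed unprotected RNA and the 40S and 80S complexes were separated. The eIF3b-bound library holds footprints of 40S complexes pulled down with a goat polyclonal antibody against eIF3b, a core subunit of initiation factor eIF3, and 40S 1 holds footprints of 40S complexes with no pull-down. The series has 6 libraries (1 eIF3b-bound 40S, 2 unselected 40S, 2 unselected 80S and 1 mRNA), and the counts per gene used here are of the eIF3b-bound library and of 40S 1.

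The eIF3b-bound library held 947733 footprints and 40S 1 held 834172. SLC symbols took 0.735% of the eIF3b-bound library and 0.649% of 40S 1. With 1 library of each kind there was no replicate and no test, so each ratio is given with an exact Clopper-Pearson interval at 95% that covers counting error only. The pull-down and any other difference between the 2 libraries cannot be told apart. Ratios are log2 of CPM (counts scaled to equal library totals) in the eIF3b-bound library over 40S 1, and the median gene stood at 0.25. The 10 genes highest in 40S 1 held 1.83% of the eIF3b-bound library and 28.9% of 40S 1, and without them in the totals the median gene stood at -0.22, so ratios are read against the median gene. Of 5 genes reported for the HEK293 line 2 were in the table: KRT8 had 267 eIF3b-bound footprints and 100 in 40S 1, and NEFM had 15 and 50 in the same order. Of 11 markers of other cell types 5 were in the table: the muscle actin ACTA1, which has near-identical actin copies, had 21 and 10 footprints, MYH7 had 2 and 1, COL3A1 had 2 and 0, and CD3E and HBB had none.

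SLC25 proteins sit in the inner mitochondrial membrane, are made on cytosolic ribosomes, and reach that membrane through the TOM pore and the small TIMM chaperones. Most other SLC proteins are inserted into the endoplasmic reticulum and travel to the plasma membrane or to organelles. Before an 80S ribosome forms, a 40S complex carrying eIF3 scans the 5′ UTR from the cap to the start codon, while 40S complexes at and after the stop codon belong to termination and recycling.

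The annotated gene starts below are shown because the 5′ UTR, which held the largest share of eIF3b-bound footprints, begins there. They are of the 6 SLC25 genes and the 4 other SLC genes with the most footprints that have an entry in the table, and of SLC25A22, one of the SLC25 genes past 2-fold above the median gene. Each line gives 15 bases before and 15 bases from the start of the gene on its own strand, from RefSeq (GRCh38.p14), and capitals mark an unbroken run of C and T that begins with C at the first transcribed base.
SLC25A5: atttgcttcgctccgCCCCgcagcgccgga
SLC25A6: cggtggctgctccgtCCTTTCggtccaggc
SLC25A39: cccttggctgctttcggcgtcggcctaggt
SLC25A11: gcctgcgcccgcgccggcttccagcgggtg
SLC25A13: cgggagggcgtggggaggcaggccaggaac
SLC25A4: tgcgggccaggcggcggccccctagcgtcg
SLC25A22: gccgagcggacgcgcCTCCCCgcctaggtg
SLC30A9: gtttccgggtcacccaggcagcttgtggcg
SLC31A1: gcgggagggggcgggaaatcctcggcctcg
SLC29A1: gtcgcctgttgcagcCTCTCTTCCgcccgg
SLC4A2: ccgctgttgttattcCTTTTatgtgctccc
In that build these windows are chrX:119468429-119468458 (+) for SLC25A5, chrX:1392099-1392128 (-) for SLC25A6, chr17:44324809-44324838 (-) for SLC25A39, chr17:4940032-4940061 (-) for SLC25A11, chr7:96322084-96322113 (-) for SLC25A13, chr4:185143251-185143280 (+) for SLC25A4, chr11:798267-798296 (-) for SLC25A22, chr4:41990515-41990544 (+) for SLC30A9, chr9:113221529-113221558 (+) for SLC31A1, chr6:44219600-44219629 (+) for SLC29A1 and chr7:151058185-151058214 (+) for SLC4A2.

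A first base C followed without a break by C or T, at least 5 bases in all on the gene's strand, is the letter pattern of TOP mRNAs, the class that includes ribosomal protein mRNAs. It was found at 2 of 18 SLC25 starts that matched the RefSeq table (SLC25A6 and SLC25A22), at 3 of 41 other SLC starts (SLC29A1, SLC4A2 and SLC8A1), at 5.84% of 3389 matched genes with 20 footprints and at 4.04% of all 27305 starts in the table. SLC25A5 had a run of 4, short of the length asked for, and the first transcribed base, the 16th of each line, was G in SLC25A39, SLC25A11 and SLC25A4 and A in SLC25A13, SLC30A9 and SLC31A1. One annotated start was read per gene, and a start shifted by a single base changes the run. The first 50 bases were richer in G and C in SLC25 genes, with a median of 77% against 68% in other SLC genes and 68% in all matched genes with 20 footprints. SLC25A32, SLC16A1, SLC16A13, SLC20A2, SLC23A2, SLC2A3, SLC35C2, SLC35F6, SLC7A11 and SLC7A2 had no entry.

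Counted over the whole gene, SLC25 mRNAs stood slightly above the median gene in the eIF3b-bound library relative to 40S 1, and other SLC mRNAs stood below it. The median log2 ratio was 0.50 (quartiles -0.15 and 1.01) over 19 SLC25 genes, -0.48 (quartiles -1.23 and 0.62) over 50 other SLC genes and 0.25 (quartiles -0.63 and 0.99) over all 4175 genes. Relative to the median gene these are 0.25 for SLC25 genes and -0.73 for other SLC genes, a difference of 0.97 or 1.96-fold. Counted in fewer areas, each of which left fewer genes with 20 footprints, the difference was smaller or turned round. Without the 3′ UTR it was 0.18 over 59 genes, whose whole-gene difference was 0.95. In coding sequences alone it was 0.43 over 32 genes, against 1.02 for their whole genes, and in the 5′ UTR and start codon alone it was -0.19 over 40 genes, against 0.64. The last alternative and the whole-gene values of these smaller sets were chosen after seeing the data.

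A gene was called when its ratio was at least 2-fold from the median gene, that is at or above 1.25 or at or below -0.75. At or above 1.25 were 2 of 19 SLC25 genes and 7 of 50 other SLC genes, against 18.2% of all genes. At or below -0.75 were 3 of 19 SLC25 genes and 19 of 50 other SLC genes, against 22.2% of all genes. The members were chosen on the same 2 libraries with earlier results known, so these counts are a description and not a test. By counting error, intervals lay wholly above the median gene for 8 SLC25 genes and 12 other SLC genes, against 32.9% of all genes, and wholly below it for 5 SLC25 genes and 25 other SLC genes, against 33.1% of all genes.

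**Figure D1:**
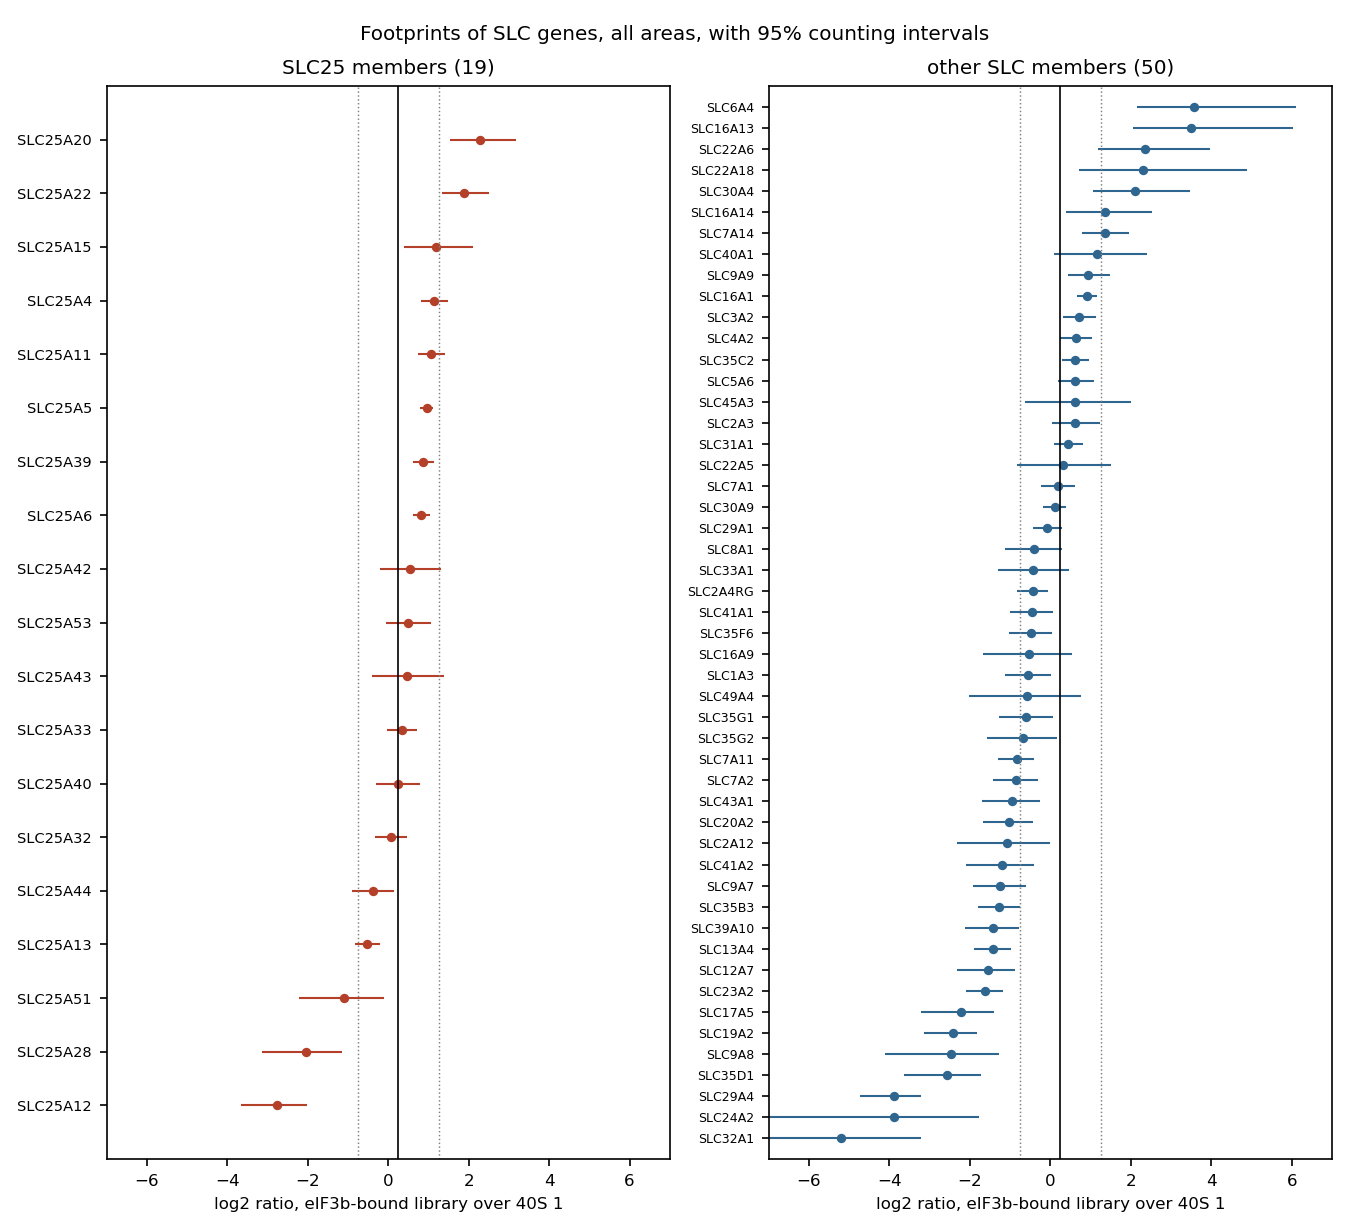
Log2 ratio of CPM in the eIF3b-bound library over 40S 1 for each of 19 SLC25 genes (left) and 50 other SLC genes (right), as points with 95% counting intervals; the solid line is the median gene (0.25) dotted lines lie 2-fold from it, and the intervals of SLC24A2 and SLC32A1 run past the left edge. SLC25 genes run from -2.76 (SLC25A12) to 2.27 (SLC25A20), and other SLC genes from -5.20 (SLC32A1) to 3.58 (SLC6A4).

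Summed over genes, the SLC25 set held 3555 eIF3b-bound footprints and 2017 in 40S 1, which is 0.375% and 0.242% of each library. The other SLC set held 3212 eIF3b-bound footprints and 3268 in 40S 1, or 0.339% and 0.392%. The log2 ratio of these sums was 0.63 (0.55 to 0.71) for SLC25 genes and -0.21 (-0.28 to -0.14) for other SLC genes. Few genes weighed heavily in these sums, and the intervals cover counting error only. Without SLC25A5 and SLC25A6 the SLC25 set held 1947 eIF3b-bound footprints and 1262 in 40S 1. In the other SLC set, SLC29A4 alone gave 17 eIF3b-bound footprints and 226 in 40S 1. SLC25 genes were more deeply covered, with a median of 133 footprints per gene over both libraries against 95.5 in other SLC genes and 139 in all genes. Among genes with 20 to 99 footprints the medians relative to the median gene were 0.21 for 5 SLC25 genes, -0.84 for 26 other SLC genes and -0.16 for 1620 genes in all, and among those with 100 or more they were 0.41, -0.51 and 0.10 for 14, 24 and 2555 genes. The order was thus alike in both depth ranges.

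The ADP/ATP translocases, which exchange cytosolic ADP for matrix ATP, include the 2 most covered members, SLC25A5 and SLC25A6. SLC25A5 (chrX:119468444-119471396) had 1036 eIF3b-bound footprints and 471 in 40S 1, a log2 ratio of 0.95 (0.79 to 1.11). SLC25A6 (chrX:1386152-1392113) had 572 and 284, a ratio of 0.82 (0.62 to 1.04). SLC25A4 (chr4:185143266-185150382), the form of heart and muscle, had 259 and 103, a ratio of 1.14 (0.81 to 1.49). All 3 lay above the median gene by more than counting error, with ratios short of the 2-fold line. These genes are near-identical in coding sequence, SLC25A5 has many processed pseudogenes and SLC25A6 lies in the region shared by X and Y, and the rule by which the authors assigned shared reads is not given in the sources used here, so their separate values are uncertain.

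All 3 had more eIF3b-bound than 40S 1 footprints in the 5′ UTR and at the start codon. SLC25A5 had 426 footprints in the 5′ UTR and 370 at the start codon in the eIF3b-bound library, against 66 and 149 in 40S 1. SLC25A6 had 350 and 98, against 92 and 30, and SLC25A4 had 144 and 85, against 15 and 18. In coding sequences the eIF3b-bound library and 40S 1 held 174 and 179 footprints of SLC25A5, 56 and 105 of SLC25A6 and 22 and 43 of SLC25A4. In the 3′ UTR the same order of libraries gave 65 and 72 for SLC25A5, 68 and 53 for SLC25A6 and 8 and 24 for SLC25A4. In 40S 1 the first areas differed between the genes: the start codon held more than the 5′ UTR in SLC25A5 and fewer in SLC25A6.

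The carriers of dicarboxylates and amino acids covered nearly the whole range of the family. SLC25A11 (chr17:4937130-4940046), which exchanges oxoglutarate for malate, had 270 eIF3b-bound footprints and 113 in 40S 1 (log2 ratio 1.07, 0.75 to 1.40). SLC25A22 (chr11:790475-798281), a glutamate carrier, had 136 and 32 (1.89, 1.34 to 2.51), with 102 and 14 of them in the 5′ UTR. SLC25A15, the ornithine carrier of the urea cycle, had 45 and 17 (1.19, 0.39 to 2.12). SLC25A22 was past the 2-fold line by more than counting error, while SLC25A11 and SLC25A15 lay short of it with intervals that crossed it.

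The aspartate/glutamate carriers of the malate-aspartate shuttle, SLC25A12 and SLC25A13, were both below the median gene. SLC25A13 (chr7:96120220-96322098) had 161 eIF3b-bound footprints and 203 in 40S 1, a ratio of -0.52 (-0.83 to -0.21). Within the gene it split by area: the 5′ UTR held 95 and 20 footprints, the coding sequence 10 and 81, and the 3′ UTR 24 and 93. SLC25A12 (chr2:171783405-171894244) had 16 and 98, a ratio of -2.76 (-3.66 to -2.03), and 86 of its 98 footprints in 40S 1 lay in the 3′ UTR, where the eIF3b-bound library had 4. At the start codon of SLC25A12 the order was opposite, with 11 eIF3b-bound footprints and 1 in 40S 1. SLC25A44, a carrier of branched-chain amino acids, had 62 and 71 in all (-0.38, -0.90 to 0.13) and 47 and 14 in the 5′ UTR.

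SLC25A39 and SLC25A40 import glutathione. SLC25A39 (chr17:44319628-44324823) had 394 eIF3b-bound footprints and 189 in 40S 1 (0.87, 0.62 to 1.13), with 207 and 43 in the 5′ UTR and 100 and 24 at the start codon. SLC25A40 had 67 and 50 (0.23, -0.31 to 0.80), so it could not be told from the median gene at this depth.

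Carriers of nucleotides, cofactors and iron lay on both sides. SLC25A33, a pyrimidine nucleotide carrier, had 152 eIF3b-bound footprints and 106 in 40S 1 (0.33, -0.03 to 0.71), made of 117 and 18 in the 5′ UTR and 13 and 51 in the coding sequence. SLC25A32, the folate carrier, had 123 and 103 (0.07, -0.32 to 0.46), made of 90 and 38 in the 5′ UTR and 2 and 39 in the 3′ UTR. In both, a whole-gene ratio near the median gene combined a 5′ UTR higher and a downstream area lower in the eIF3b-bound library. SLC25A42, a coenzyme A carrier, had 43 and 26 (0.53, -0.19 to 1.30), and SLC25A51, the NAD carrier, had 13 and 25 (-1.10, -2.22 to -0.11). SLC25A28, mitoferrin-2, which brings iron into the matrix, had 12 and 45 (-2.05, -3.15 to -1.15) and no footprint in its 5′ UTR in either library.

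SLC25A20 (chr3:48856926-48898882), the carnitine/acylcarnitine carrier of fatty acid oxidation, had the highest ratio of the family, with 90 eIF3b-bound footprints and 16 in 40S 1 (2.27, 1.53 to 3.17). Of these, 76 and 16 lay in the 3′ UTR, and the 5′ UTR had 8 and 0. SLC25A43 had 30 and 19 (0.46, -0.40 to 1.39), with 29 and 5 in the coding sequence, and SLC25A53 had 74 and 46 (0.50, -0.05 to 1.07), with 44 and 43 in the 3′ UTR. The pair of SLC25 genes past 2-fold above thus differed in position: SLC25A22 was carried by its 5′ UTR and SLC25A20 by its 3′ UTR.

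**Figure D2:**
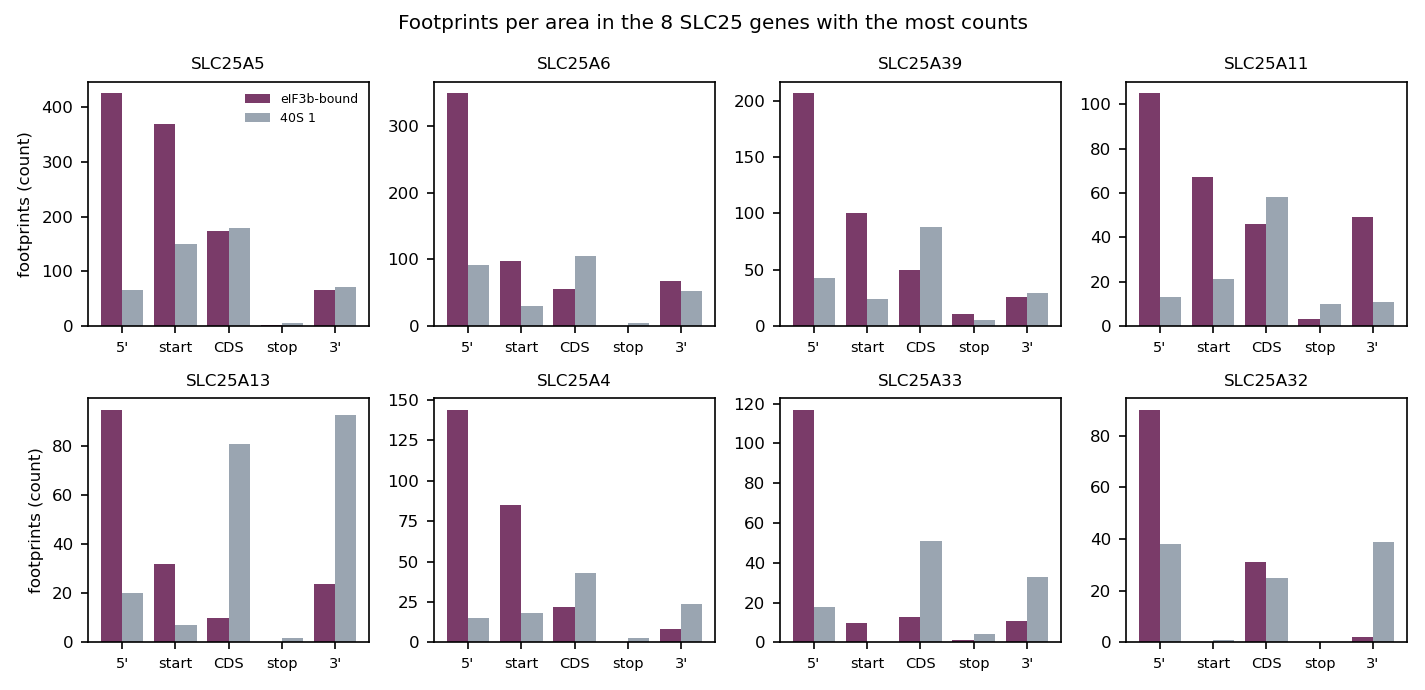
Footprint counts in the eIF3b-bound library (purple, left bar) and 40S 1 (grey, right bar) by area, from the 5′ UTR to the 3′ UTR, in the 8 SLC25 genes with the most footprints; vertical scales differ between genes. All 8 have more eIF3b-bound than 40S 1 footprints in the 5′ UTR, from 426 against 66 in SLC25A5 to 90 against 38 in SLC25A32, and SLC25A13 has the reverse in its coding sequence, 10 against 81.

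Shares of footprints per area do not depend on library totals. In SLC25 genes the 5′ UTR took 51.2% of eIF3b-bound footprints (49.6 to 52.9) and 18.3% of 40S 1 footprints (16.7 to 20.1). The 3′ UTR took 12.0% (10.9 to 13.1) and 32.4% (30.4 to 34.5), and the coding sequence took 14.0% and 34.8%. In other SLC genes the 5′ UTR took 56.2% (54.4 to 57.9) and 17.7% (16.5 to 19.1), the 3′ UTR 24.5% (23.1 to 26.1) and 54.3% (52.6 to 56.0), and the coding sequence 14.2% and 25.2%. Over all genes the 5′ UTR took 50.9% and 11.0%, the 3′ UTR 13.4% and 47.3%, and the coding sequence 17.1% and 31.8%. SLC29A4 alone gave 208 of the 580 5′ UTR footprints of other SLC genes in 40S 1. The median 5′ UTR share over genes with at least 10 footprints was 55.6% and 14.6% in SLC25 genes. It was 55.3% and 6.12% in other SLC genes and 45.0% and 8.33% in all genes. By this measure other SLC genes lay below both SLC25 and all genes in 40S 1. By either measure both SLC sets showed the shift toward the 5′ UTR that the eIF3b-bound library had over all genes. Other SLC genes had the larger 3′ UTR share in each library.

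The shift held gene by gene. Among the 19 SLC25 genes, all with at least 10 footprints in each library, the 5′ UTR share was higher in the eIF3b-bound library in 17, and SLC25A28 and SLC25A43 had none there in either. It was higher in 34 of 40 other SLC genes and in 81.2% of 3735 genes with that coverage. Any difference in share was counted, without regard to counting error, and in SLC25A12 it rested on 1 eIF3b-bound footprint and 0 in 40S 1. The 3′ UTR share was lower in the eIF3b-bound library in 18 of 19 SLC25 genes, SLC25A11 being the exception (49 footprints and 11), in 33 of 40 other SLC genes and in 83.0% of all.

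Start codon footprints separated the sets in both libraries. They made up 22.4% of eIF3b-bound and 12.8% of 40S 1 footprints in SLC25 genes, against 5.11% and 2.33% in other SLC genes and 18.1% and 8.57% in all genes. SLC25A5 alone gave 370 of the 795 eIF3b-bound and 149 of the 258 40S 1 start codon footprints of the SLC25 set, and without it the shares were 16.9% and 7.05%. Without SLC25A5 and SLC25A6 they were 16.8% and 6.26%. The median over genes was lower, 6.67% and 1.02% in SLC25 genes, 0% in both libraries in other SLC genes, and 6.50% and 2.96% in all genes, so by this measure SLC25 genes were close to all genes in the eIF3b-bound library and below them in 40S 1. Among genes with at least 10 eIF3b-bound footprints, 7 of 19 SLC25 genes, 27 of 46 other SLC genes and 1259 of 4001 genes in all had none at the start codon. Stop codons held 0.450% of eIF3b-bound and 1.64% of 40S 1 footprints in SLC25 genes, and in other SLC genes 0 of 3212, which allows a share of up to 0.0934% if 3 counts are taken as the limit, and 0.459%.

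**Figure D3:**
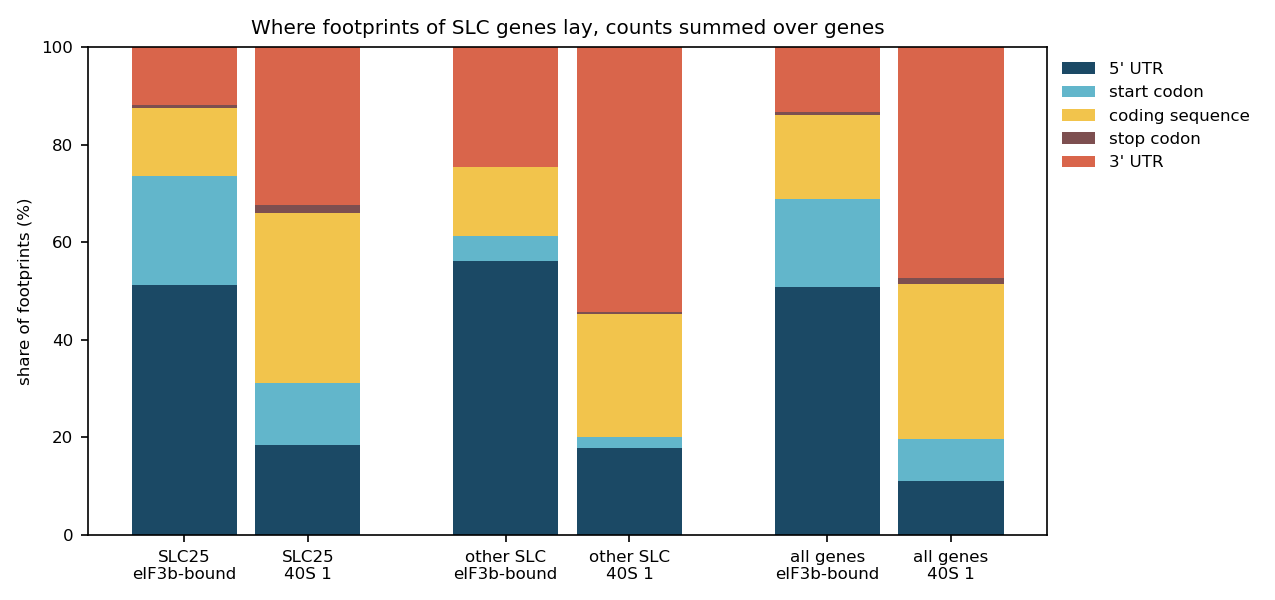
Share of footprints (%) in 5 areas, counts summed over the 19 SLC25 genes, the 50 other SLC genes and all 4175 genes, with the eIF3b-bound library left of 40S 1 in each pair. The 5′ UTR takes 51.2% against 18.3% in SLC25 genes and 56.2% against 17.7% in other SLC genes, and the 3′ UTR takes 54.3% of 40S 1 footprints in other SLC genes.

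The share of 40S 1 footprints in the 3′ UTR also differed between the sets gene by gene. It was over 50% in 8 of 19 SLC25 genes, 28 of 44 other SLC genes and 39.4% of 3909 genes with at least 10 footprints in 40S 1. Relative to the median gene, the median ratio of those genes was 0.10 in SLC25, -0.97 in other SLC and -0.76 in all. Genes at 50% or less had medians of 0.62 in SLC25, -0.68 in other SLC and 0.30 in all. The same 40S 1 footprints enter the share and the ratio, so these values describe one set of counts.

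Compared area by area, with at least 20 footprints in the area and against equal CPM, the medians of the 2 sets were closer together. This depended on the minimum. With 10 footprints the SLC25 and other SLC medians lay further apart in coding sequences (-0.52 and -1.45) and at the start codon (1.85 and 0.55). A gene could reach 20 footprints through the library where it was higher, so this minimum favours genes past 2-fold in that direction. The counts below are a description. In the 5′ UTR the median log2 ratio was 2.05 over 14 SLC25 genes, 2.51 over 25 other SLC genes and 2.27 over 2407 genes. At least 2-fold higher in the eIF3b-bound library were 13 of 14 SLC25 genes and 20 of 25 other SLC genes, against 91.3% of all, and at least 2-fold lower were 0 of 14 and 1 of 25, against 0.665%. The SLC25 genes ranged from -0.58 (-2.03 to 0.77) in SLC25A51, with 9 footprints and 12, to 3.42 (1.74 to 6.83) in SLC25A53, with 30 and 2. The 3 translocases had 2.50 (2.13 to 2.90) in SLC25A5, 1.74 (1.41 to 2.09) in SLC25A6 and 3.04 (2.31 to 3.95) in SLC25A4. The intervals of SLC25A4 and SLC25A6 did not overlap.

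At the start codon the median was 1.68 over 6 SLC25 genes and 1.22 over 1333 genes, and the other SLC genes with 20 footprints there were SLC35F6 at 2.29 (1.02 to 4.12) and SLC16A1 at 1.13 (0.26 to 2.13). By library totals, all 6 SLC25 genes were at least 2-fold higher in the eIF3b-bound library, against 60.2% of all. None was 2-fold lower, against 1.73% of all. The 6 genes ran from 1.13 (0.85 to 1.41) in SLC25A5 to 2.02 (1.31 to 2.88) in SLC25A4, with SLC25A13, SLC25A39, SLC25A6 and SLC25A11 between. SLC25A5 lay above 45.5% of all genes measured there. Without the 10 genes highest in 40S 1 in the totals, the SLC25 median was 1.21, so the count past 2-fold depends on the totals. The 6 genes with a start codon count of 20 include the 3 near-identical translocases. With a minimum of 10 footprints at the start codon the medians were 1.85 over 9 SLC25 genes and 0.55 over 6 other SLC genes.

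Downstream areas ran the other way. In coding sequences the median was -0.99 over 11 SLC25 genes, -1.42 over 21 other SLC genes and -0.64 over 2734 genes. At least 2-fold lower were 5 of 11 SLC25 and 12 of 21 other SLC genes, against 38.7% of all, and at least 2-fold higher were 2 of 11 and 1 of 21, against 11.3%. SLC25A43 (29 eIF3b-bound footprints and 5 in 40S 1, 2.24, 0.97 to 4.08) and SLC25A42 (26 and 6, 1.84, 0.62 to 3.50) were the exceptions in SLC25, and SLC35C2 (53 and 15, 1.60, 0.79 to 2.57) in the others. In 3′ UTRs the medians were -1.71 over 15 SLC25 genes, -2.09 over 33 other SLC genes and -1.53 over 2741 genes. There 9 of 15 and 25 of 33 were at least 2-fold lower, against 61.6% of all, and 2 of 15 and 3 of 33 at least 2-fold higher, against 10.7%. The 2 SLC25 exceptions were SLC25A20 at 2.03 (1.27 to 2.94) and SLC25A11 at 1.92 (1.01 to 3.06). With a minimum of 10 footprints in the area, the SLC25 and other SLC medians were 2.07 and 2.25 in the 5′ UTR. They were -0.52 and -1.45 in coding sequences and -1.71 and -1.83 in 3′ UTRs. No SLC gene had 20 footprints at its stop codon, where 3.85% of 156 genes were at least 2-fold higher and 65.4% at least 2-fold lower.

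**Figure D4:**
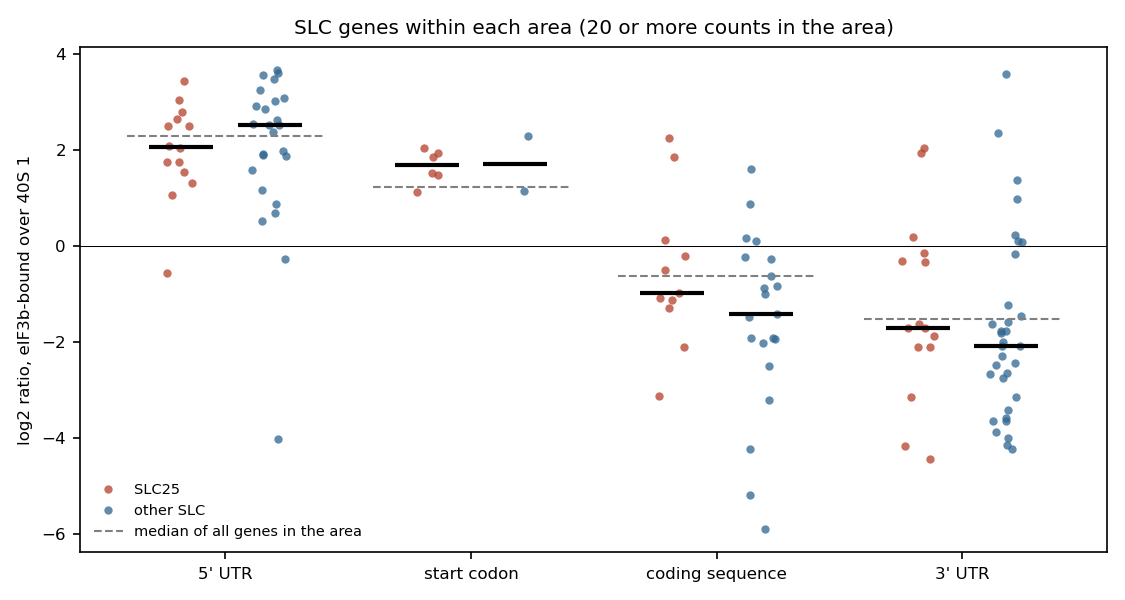
Log2 ratio of CPM in the eIF3b-bound library over 40S 1 within 4 areas, one point per gene with at least 20 footprints in that area (red, SLC25; blue, other SLC); black bars are set medians and dashed lines the median of all genes in the area. In the 5′ UTR the SLC25 and other SLC medians are 2.05 and 2.51, and in the 3′ UTR -1.71 and -2.09.

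Classes of the other families follow family numbers. For the counts past 2-fold in this and the following classes, the shares over all genes were 18.2% above and 22.2% below. With so few genes per class these counts are a description. Carriers of sugars and monocarboxylates had a median of 0.37 relative to the median gene over 8 measured of 19 listed. SLC16A1 (chr1:112911847-112956196), the lactate and pyruvate transporter MCT1, had 435 eIF3b-bound footprints and 205 in 40S 1 (0.90, 0.66 to 1.15), with 369 and 89 in the 5′ UTR and 5 and 77 in the 3′ UTR. SLC2A3, the glucose transporter GLUT3, had 68 and 39 (0.61, 0.03 to 1.22), with 63 and 7 in the 5′ UTR. SLC5A6, which takes up biotin and pantothenate and falls in this class by its family number, had 119 and 68 (0.62, 0.18 to 1.07). In this class 2 genes were past 2-fold above and 1 past 2-fold below.

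Amino acid carriers had a median of -0.43 relative to the median gene over 8 measured of 23 listed, with 2 past 2-fold above and 3 below. The 2 above were SLC6A4, the serotonin transporter, which falls in this class by its family number, and SLC7A14, and nearly all footprints of both lay in the 3′ UTR. Without them the median was -0.94 and none was above. SLC3A2, the CD98 heavy chain that brings light chains such as SLC7A11 to the surface, had 151 eIF3b-bound footprints and 81 in 40S 1 (0.71, 0.32 to 1.12). SLC7A1, the cationic amino acid transporter CAT1, had 114 and 88 (0.19, -0.22 to 0.61), made of 73 and 5 in the 5′ UTR and 30 and 74 in the 3′ UTR. SLC7A11, the cystine/glutamate exchanger, had 69 and 109 (-0.84, -1.30 to -0.40), made of 57 and 13 in the 5′ UTR and 4 and 74 in the 3′ UTR. The heavy chain and its light chain partner thus lay on opposite sides of the median gene over the whole gene, while their 5′ UTR ratios were 1.89 (1.21 to 2.70) and 1.91 (1.06 to 2.94).

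Carriers of metals had a median of -0.14 relative to the median gene over 7 measured of 13 listed, with 1 past 2-fold above and 2 below. SLC31A1, the copper importer CTR1, had 173 eIF3b-bound footprints and 112 in 40S 1 (0.44, 0.09 to 0.80), with 144 and 11 in the 5′ UTR and 21 and 76 in the 3′ UTR. SLC30A9, a zinc transporter, had 236 and 193 (0.11, -0.17 to 0.39), with 190 and 29 in the 5′ UTR and 17 and 86 in the 3′ UTR. SLC41A1, a magnesium transporter, had 55 and 67 (-0.47, -1.01 to 0.07). All 3 lay within 2-fold of the median gene.

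Inorganic ion carriers had a median of -1.38 relative to the median gene over 8 measured of 19 listed. Past 2-fold above were 0 and below 5, against 18.2% and 22.2% of all genes. SLC4A2, a chloride/bicarbonate exchanger, had 157 eIF3b-bound footprints and 89 in 40S 1 (0.63, 0.25 to 1.03), and SLC20A2, a phosphate transporter, had 36 and 65 (-1.03, -1.67 to -0.43). SLC35 genes, which include the nucleotide sugar carriers of the Golgi and endoplasmic reticulum, had a median of -0.90 relative to the median gene over 6 measured of 10 listed, with 0 above and 2 below. SLC35C2 had 217 and 124 (0.62, 0.30 to 0.95), SLC35B3, which carries the sulfate donor PAPS, had 47 and 100 (-1.27, -1.81 to -0.76), and SLC35D1 had 12 and 65 (-2.57, -3.65 to -1.72). In SLC35D1, 60 of the 65 footprints in 40S 1 lay in the 3′ UTR.

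Nucleoside and vitamin carriers had a median of -1.87 relative to the median gene over 5 measured of 11 listed, with 0 past 2-fold above and 3 below. By family number the class holds the monoamine transporter SLC29A4 and not the vitamin carrier SLC5A6. Without SLC29A4 the median was -1.35, and with SLC5A6 added as well it was -0.83. SLC29A1, the nucleoside transporter ENT1, had 136 eIF3b-bound footprints and 126 in 40S 1 (-0.07, -0.43 to 0.29). SLC23A2, which takes up vitamin C, had 54 and 147 (-1.62, -2.11 to -1.17), and SLC19A2, the thiamine transporter, had 25 and 120 (-2.42, -3.13 to -1.82). The 3′ UTR held 133 of the 147 footprints of SLC23A2 and 117 of the 120 of SLC19A2 in 40S 1. The class of organic ions and remaining families had a median of -0.81 relative to the median gene over 6 measured of 27 listed, with 2 above and 3 below. SLC17A5, the lysosomal sialic acid exporter sialin, had 14 and 59 (-2.22, -3.22 to -1.40), and SLC13A4, a sulfate transporter, had 59 and 140 (-1.42, -1.90 to -0.98). SLC33A1, the acetyl-CoA transporter, had 22 and 26 (-0.42, -1.31 to 0.45). The regulator SLC2A4RG had 102 and 122 (-0.44, -0.84 to -0.05).

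Some of the most extreme ratios came from genes whose footprints lay almost wholly in 1 area. At least 90% of footprints over both libraries fell in 1 area in 0 of 19 SLC25 genes, 7 of 50 other SLC genes and 7.28% of all genes. SLC29A4, a monoamine transporter, had 17 eIF3b-bound footprints and 226 in 40S 1 (-3.88, -4.72 to -3.21), and 14 and 208 of these lay in the 5′ UTR, the reverse of every other SLC 5′ UTR past 2-fold. SLC6A4 had 47 and 3 (3.58, 2.15 to 6.11), all in the 3′ UTR. SLC7A14 had 102 and 35 (1.35, 0.79 to 1.96) and SLC9A9, an endosomal sodium/proton exchanger, 101 and 46 (0.94, 0.43 to 1.49), with 101 and 34, and 94 and 42, in the 3′ UTR. SLC32A1, the vesicular GABA transporter, had 1 and 48 footprints, all in the coding sequence, a ratio of -5.20 (-11.10 to -3.22). SLC22A6, the renal organic anion transporter OAT1, which was singled out after its values were seen, had 37 and 6 (2.34, 1.18 to 3.98), and SLC24A2 had 1 and 19, all in the 3′ UTR in both genes. Whether such single-area counts come from these mRNAs or from overlapping or repeated sequence was not tested.

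A list of mitochondrial import genes, which are no part of the SLC family, had a higher median than SLC25. The list was not limited to the import of carriers, and also held TIMM17A, TIMM17B, TIMM23, TIMM44 and TIMM50. The 17 genes of the import list in the table all reached 20 footprints, with a median of 0.60 relative to the median gene, 4 of 17 past 2-fold above and 0 below, against 18.2% and 22.2% of all genes. They were more deeply covered, with a median of 441 footprints per gene against 133 in SLC25 genes. The 14 SLC25 genes with 100 or more footprints had a median of 0.41 relative to the median gene. TIMM10, a small chaperone that escorts carriers between the membranes, had 709 eIF3b-bound footprints and 111 in 40S 1, which is 2.49 on the log2 scale. TIMM13 (1.40), TIMM8A (1.68) and TIMM29 (1.54) were the others past the line. TIMM22, the channel that inserts carriers, had 75 and 97, a ratio of -0.55. The receptor TOMM20 stood at 0.53 and TOMM6 at 0.55, both within 2-fold of the median gene.

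Mitochondrial carriers and related proteins whose symbols do not begin with SLC were left out of the members by the rule, which reads symbols. They had a median of 0.67 relative to the median gene over 4 measured. Past 2-fold above were 2 and below 0, against 18.2% and 22.2% of all genes. The 2 above were MPC2 (2.03) and MPC1 (1.33), which form the mitochondrial pyruvate carrier. A list of genes of insertion into the endoplasmic reticulum, the route of most other SLC proteins, also held signal peptidase subunits. Its median was 0.06 relative to the median gene over 10 measured, with 2 above and 2 below, beside the same shares of all genes. Above were the signal peptidase subunit SPCS1 (1.57) and EMC6 (2.03). Below were SEC62 (-1.72) and the signal peptidase subunit SPCS3 (-0.95). Partners of monocarboxylate transporters and P-type ATPases were not analysed here.

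At the minimum of 20 footprints, the members just inside were SLC24A2, with 1 eIF3b-bound footprint and 19 in 40S 1, and SLC49A4, with 9 and 12. Just outside were SLC6A3, with 12 and 7, and SLC6A5, with 16 and 2. The 6 SLC25 symbols under 20 footprints are not described further.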

How the data were processed

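The authors deposited whole-number counts of footprints per gene in 5 areas for the eIF3b-bound library and 40S 1, raw per the file headers, and 0 columns were left unmapped. Both were sequenced as paired ends with read 1 used, per the labels. The submitters' processing notes name GRCh38, TopHat2 2.1.0, Bowtie2 2.2.6, Bowtie 1.2.2 and CASAVA 1.8. What each tool did, whether strand was used and how multiply matching reads were counted is not stated in them. Gene counts of 40S 2, 80S and mRNA were not used here, so footprints per mRNA could not be computed.

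Of the identifiers, 8322 matched a symbol and 1353 did not, and 2 members matched RefSeq through an older name (SLC35C2 and SLC22A18). Areas were summed per gene, and ratios were log2 of CPM by library totals after 0.5 was added to each count, and a gene needed 20 counts in all. Intervals were exact Clopper-Pearson (scipy 1.17.1); reads here carry no stated molecular identifier, so they may repeat molecules. Areas were not scaled by length. edgeR 4.0.16 (TMM) and DESeq2 1.42.0 served for alternative scaling only, with no test. Ratio steps were tested on simulated data.

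The members, substrate classes and gene lists were chosen with earlier results of these data known. Named are all SLC25 members, the 10 other SLC genes with most counts, the 5 highest and 5 lowest ratios among those with 50 or more counts, the genes next to the minimum and up to 3 per class. Sequence features of the proteins had been planned and were not run.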

Additional observations from a re-analysis of the deposited data

How the results depend on the processing

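Which areas were counted moved the contrast between SLC25 and other SLC genes most. Medians below are relative to the median gene unless said otherwise, and a median was taken as moved when it changed by more than the counting error of the set's summed counts, a yardstick set after the values were seen. Without the 3′ UTR the medians were 0.12 for SLC25 and -0.055 for other SLC (difference 0.18), with 4 of 18 SLC25 genes past 2-fold above and 10 of 41 other SLC genes past 2-fold below. In coding sequences alone the SLC25 median was -0.35 (difference 0.43), and of 21 other SLC genes 2 were above and 9 below. In the 5′ UTR and start codon alone the medians were -0.079 for SLC25 and 0.12 for other SLC, so the difference turned to -0.19, with 1 of 14 SLC25 genes above and 1 below and 4 of 26 other SLC genes above and 6 below. Whole-gene ratios of the same genes gave differences of 0.95, 1.02 and 0.64. For genes kept without the 3′ UTR, 1 SLC25 and 4 other SLC genes were above. For those kept by coding sequence, 0 SLC25 genes were above and 1 below, and 0 other SLC genes above and 7 below. For those kept by 5′ UTR and start codon, 1 SLC25 gene was above and 1 below (median 0.41), and 3 other SLC genes were above and 7 below (median -0.23). The cause was not tested. Shares of all genes past 2-fold were not computed for these or the following alternatives, so the counts of genes stand without them. These whole-gene values, the 5′ UTR and start codon alone, the minimum of 100 and the sets without single-area genes or without SLC2A4RG were chosen after seeing the data.

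A minimum of 10 counts gave 13 of 66 other SLC genes above, their median -0.44 and a difference of 0.68. A minimum of 50 gave 2 of 35 above, -0.83 and 1.08. A minimum of 1 gave 4 of 23 SLC25 genes above, and 21 of 100 other SLC genes above and 39 below with a median of -0.62. A minimum of 100 gave 1 of 14 SLC25 genes below, and 0 of 24 other SLC genes above and 8 below with a median of -0.61. Without single-area genes 4 of 43 other SLC genes were above. With no median gene subtracted the medians were 0.50 and -0.48, with 5 SLC25 genes at least 2-fold higher, and 0.031 and -0.94 once the 10 most counted genes of 40S 1 were dropped from the totals. The nucleoside and vitamin median was -1.35 without SLC29A4 and -0.83 with SLC5A6 as well, and the amino acid median -0.94 without SLC6A4 and SLC7A14, all chosen after seeing the data. Scaled by the totals of each area with no median gene subtracted, the SLC25 median was -0.15 in the 5′ UTR and 0.091 in the 3′ UTR. By library totals, also with no median gene subtracted, these were 2.05 and -1.71. The other 77 values that answer a comparison were taken as unchanged. Medians and their differences were judged by counting error, and counts of genes past 2-fold by a limit on their fold change. Such counts could still shift with the reference used. Relative to the median gene, 19 of 50 other SLC genes were past 2-fold below and 7 above. With the 10 most counted genes of 40S 1 dropped from the totals and no median gene subtracted, 24 were at least 2-fold lower and 5 higher. No paired analysis was possible because the eIF3b-bound library and 40S 1 share the number 1 but are 1 library each. Depth limits single genes: at 20 counts an interval spans several-fold.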
